A study of Bos taurus
Mus musculus with 10 samples.

Results

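The 31 genes described here belong to 2 connected stress programmes of animal cells, the amino acid response and the unfolded protein response of the endoplasmic reticulum (ER). They were chosen by symbol, as ATF4-type response genes and ER stress genes. The rule itself uses no measured value, but earlier results of these data were known when it was made. All 31 were found among the 27590 features of the bovine table, each under 1 NCBI gene ID. By role, they fall into 10 regulators and stress effectors, 8 enzymes of serine, folate and asparagine metabolism, 5 amino acid transporters and 8 ER chaperones and unfolded protein response genes. The first 3 groups, 23 genes in all, are called the amino acid response genes below.

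The samples were 10 wells of wild-type bovine embryonic stem cells, each well also holding feeder fibroblasts from mouse embryos. Lines bESC1, bESC2, bESC4, bESC8 and bESC11, here lines 1, 2, 4, 8 and 11, came from blastocysts of day 7.5 and were kept in mTeSR1 medium with 2.5 µM IWR-1. IWR-1 is a small molecule that blocks tankyrases, which stabilises AXIN and holds down Wnt/beta-catenin signalling. Each line was split over 2 wells: after rinsing, 1 received medium with IWR-1 and the other medium from which it was removed, and poly(A) RNA of the mixed culture was sequenced after 1 day. Feeders came from CD-1 mouse fetuses and had been treated for 2 h with mitomycin C to stop their growth. The groups are thus 5 wells with and 5 wells without IWR-1, each line giving 1 well per medium. Nothing in the labels describes replicate cultures of a line in 1 medium, so p-values measure the spread between these wells only.

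When amino acids run short, the kinase GCN2 phosphorylates the initiation factor eIF2, and the same step is taken by PERK when unfolded proteins build up in the ER. General translation then falls while the transcription factor ATF4 is made, and ATF4 switches on genes for amino acid synthesis, uptake and tRNA charging. ER stress also acts through ATF6 and through IRE1, which splices XBP1 mRNA, and both raise ER chaperones such as HSPA5. The amount of ATF4 protein is set largely at translation, and the splicing of XBP1 is not seen in a count per gene, so the transcript levels given here do not measure either. Pluripotent stem cells are known for a high demand for one-carbon units.

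The recovered reads per well were 48064953 to 64345738 on bovine genes, and the fewest reads of any member in any well were 77, for TRIB3. Values are normalised read counts, that is, reads divided by a size factor per library. The pluripotency genes POU5F1, SOX2, NANOG, SALL4, LIN28A, LIN28B and DNMT3B were present in every well, whereas DPPA4 stayed at 0 to 7.35. Reads on mouse genes made up 21.2% to 42.3% of all assigned reads of a well, and this share was smaller after withdrawal in each of the 5 lines (mean difference -3.64 percentage points). The exact two-sided sign-flip test gave p = 0.0625, the smallest it can reach here. The reads were mapped to each genome separately. Whether a read could count for both species was not tested, for this share or for the bovine values. In line 4, 11 of 12 fibroblast marker genes were at their highest in both media. In a bulk well, fewer cells of a type and less RNA per cell cannot be told apart.

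The first question was how the levels of these genes differed between the 5 lines. Line 1 carried far more transcript of most amino acid response genes than the other lines, in both media, while its ER chaperone transcripts were close to the level of the other lines. The stress effectors TRIB3 and CHAC1 were 17.4 to 20.6 times the median of the other 4 lines, and ATF4, ATF3, DDIT3 and CEBPB 2.78 to 4.99 times. In line 1 the level exceeded that of every other line, in each medium, for 20 of 31 members, namely 8 of 10 regulators and effectors, 7 of 8 enzymes, 4 of 5 transporters and 1 of 8 ER genes. Of all 18506 tested genes, 12.2% were highest there. With the medium as a term, 26 of 31 members differed between lines (limma F test, Benjamini-Hochberg adjusted p under 0.05 over all tested genes), against 66.5% of all tested genes. The 5 that were not called were ATF5 and the ER genes HSP90B1, PDIA4, CALR and SDF2L1. That test asks whether the lines differ, not which one does, and line 1 was singled out after its values were seen.

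**Figure D1:**
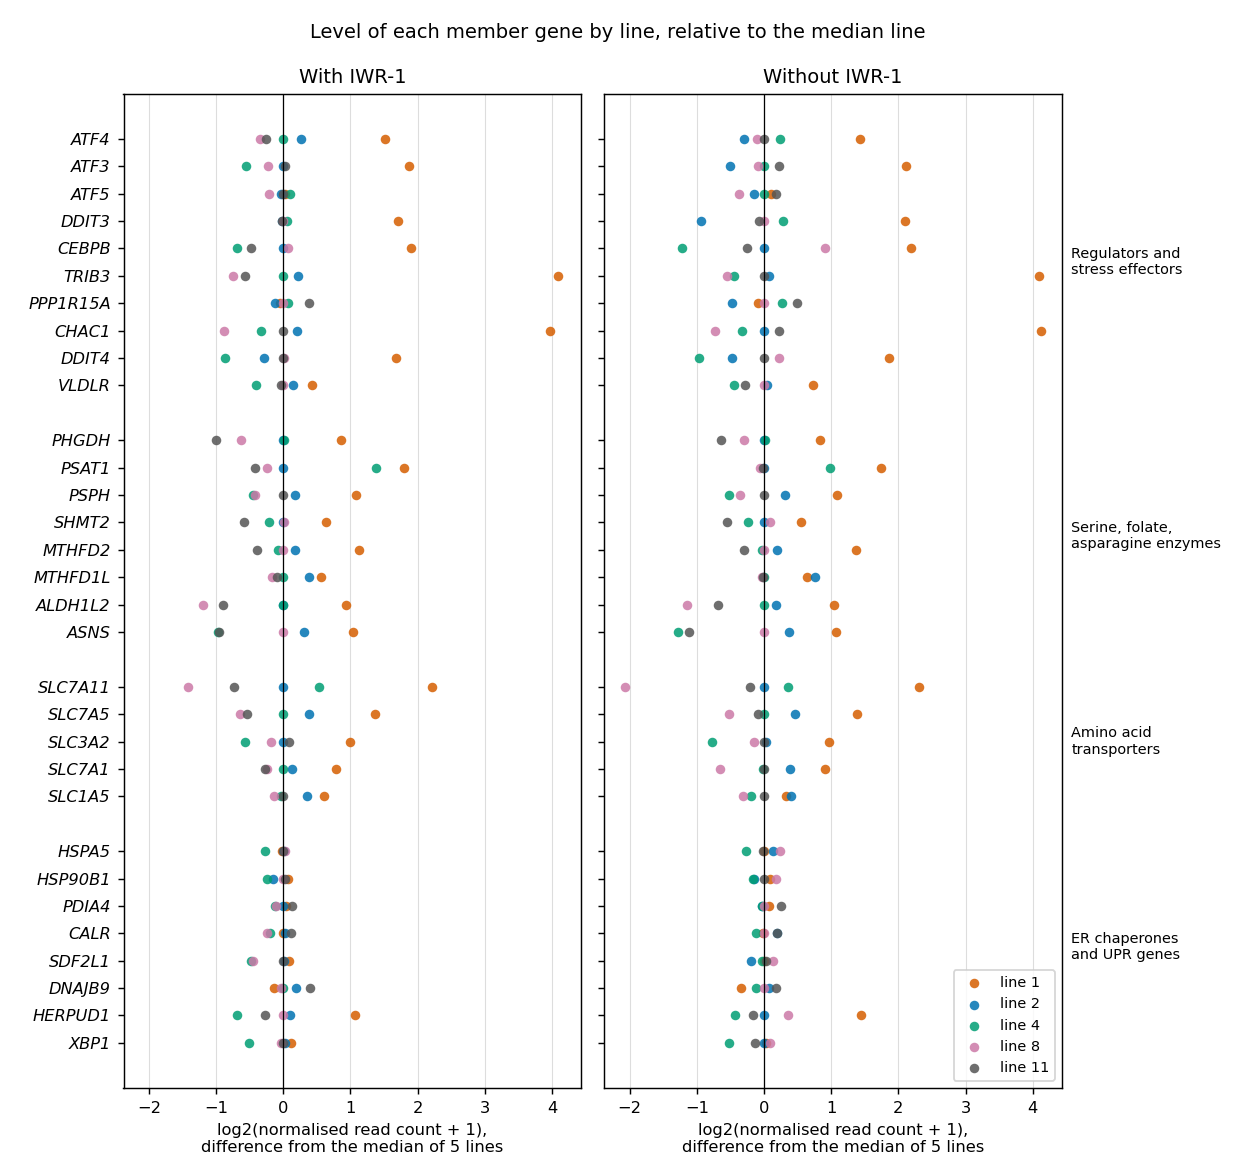
Level of the 31 members in each line. The x axis gives log2(normalised read count + 1) minus the median of the 5 lines in the same medium, with 1 point per line and 1 panel per medium. Line 1 lies far to the right for TRIB3 and CHAC1 and to the right of every other line for most amino acid response genes, while the points of the ER chaperones lie close together.

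Among the regulators, ATF4 (gene ID 509107), the master activator of the response, stood with IWR-1 at 32600, 13727, 11413, 8977 and 9511 normalised reads in lines 1, 2, 4, 8 and 11. Without IWR-1 it stood at 34839, 10566, 15363, 12087 and 12967. Line 1 lay above the other 4 lines in both media without overlap, at 3.12 and 2.78 times their median (limma F test adjusted p = 6.97e-05). DDIT3 (gene ID 777788), which encodes the stress factor CHOP, was at 1209, 366, 384, 369 and 365 with IWR-1 in the same order of lines and at 1623, 198, 462, 379 and 360 without it. Lines 2, 4, 8 and 11 lay within 365 to 384 with IWR-1, and line 1 was 3.29 times their median. For ATF3, a factor of the same leucine zipper class that is given in full because of its values, the counts were 1000, 273, 186, 232 and 278 with IWR-1 and 1672, 271, 385, 364 and 449 without it. CEBPB, a partner of ATF4 at its target sites, was between 94.6 and 416 in the other lines and at 810 and 1013 in line 1. ATF5 showed none of this, at 346 to 511 over the 10 wells (F test adjusted p = 0.124).

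A pair of effectors downstream, TRIB3 and CHAC1, differed most between lines. TRIB3 (gene ID 538465), a pseudokinase that ATF4 and CHOP induce and that damps the response, was at 2073, 140, 120, 71.3 and 80.6 with IWR-1 in lines 1, 2, 4, 8 and 11 and at 3265, 201, 140, 130 and 191 without it. The gamma-glutamylcyclotransferase CHAC1 (gene ID 505991), which breaks down glutathione, was at 3440, 252, 175, 119 and 220 with IWR-1 and at 4665, 266, 212, 160 and 311 without it. Over both genes the 8 wells of the other lines lay between 71.3 and 311, and the wells of line 1 between 2073 and 4665, without overlap (F test adjusted p = 2.7e-07 and 2.11e-08). DDIT4 (gene ID 529235), an inhibitor of the growth kinase complex mTORC1 that also answers to hypoxia and steroid hormones, was at 16245, 4173, 2777, 5118 and 5069 with IWR-1 and at 15705, 3100, 2202, 5033 and 4322 without it, and here line 4 was lowest. VLDLR, a lipoprotein receptor, was 1.37 and 1.82 times the median of the other lines in line 1. PPP1R15A, the phosphatase subunit GADD34 that reverses eIF2 phosphorylation, ran otherwise, with line 11 highest at 965 and 1020 and line 1 at 712 and 683.

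The serine pathway turns a glycolytic intermediate into serine through PHGDH, PSAT1 and PSPH in turn. PHGDH (gene ID 505103) was at 29759, 16438, 16625, 10666 and 8240 normalised reads in lines 1, 2, 4, 8 and 11 with IWR-1 and at 31855, 17863, 18034, 14568 and 11499 without it. PSAT1 (gene ID 533044) was at 4017, 1158, 3003, 978 and 863 with IWR-1 and at 5761, 1720, 3388, 1654 and 1696 without it. Line 4 was second for PSAT1 in both media, below line 1 and well above lines 2, 8 and 11. PSPH (gene ID 533630) was at 7513, 3996, 2582, 2663 and 3549 with IWR-1 and at 8860, 5141, 2891, 3251 and 4162 without it, and line 4 was lowest.

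SHMT2, MTHFD2, MTHFD1L and ALDH1L2 carry the one-carbon unit of serine through the folate cycle of the mitochondrion. MTHFD2 (gene ID 517539) was at 3087, 1594, 1343, 1412 and 1072 with IWR-1 in the same order of lines and at 4103, 1816, 1549, 1589 and 1298 without it. ALDH1L2 (gene ID 516864), which oxidises formyl-tetrahydrofolate to carbon dioxide, was at 3846, 2011, 2015, 877 and 1078 with IWR-1 and at 4696, 2587, 2292, 1035 and 1426 without it. Lines 8 and 11 were low, lines 2 and 4 in between and line 1 high, and the lines kept this order of groups in both media. MTHFD1L (gene ID 534296), which releases formate, differed least of the enzymes, at 10747, 9551, 7291, 6492 and 6824 with IWR-1 and 11978, 12969, 7665, 7478 and 7563 without it. In its case line 2 passed line 1 without IWR-1. SHMT2, which splits serine into glycine and a one-carbon unit, was 1.67 and 1.58 times the median of the other lines in line 1. ASNS (gene ID 514209), the asparagine synthetase that is a textbook ATF4 target, was at 24022, 14495, 5976, 11761 and 6044 with IWR-1 and at 26752, 16381, 5235, 12723 and 5891 without it. Its order of lines was 1, 2, 8 and then 4 and 11 close together, and the line accounted for 99.2% of its sum of squares against 0.068% for the medium.

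Of the transporters, SLC7A11 (gene ID 524078), the cystine-glutamate exchanger that feeds glutathione synthesis, differed most between lines, at 2063, 443, 639, 165 and 266 in lines 1, 2, 4, 8 and 11 with IWR-1 and 2892, 582, 742, 138 and 501 without it. Without line 1 it still ranged over 2.18 on the log2 scale, the widest of the 31 members, with line 8 lowest. SLC7A5 (gene ID 282369), the carrier LAT1 for leucine and other large amino acids, was at 12586, 6405, 4903, 3131 and 3356 with IWR-1 and 14971, 7857, 5707, 3978 and 5359 without it. SLC3A2, the heavy chain that both of these carriers need at the cell surface, was 2.11 and 2.05 times the median of the other lines in line 1. The carrier SLC7A1 for cationic amino acids was at 1.87 and 1.88 times that median. The glutamine carrier SLC1A5 (gene ID 282355) was at 20423, 17246, 13068, 12165 and 13449 with IWR-1 and 20990, 22059, 14589, 13471 and 16737 without it, where line 2 was the highest.

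The ER genes gave a different picture. HSPA5 (gene ID 415113), the chaperone BiP whose transcript is the usual gauge of ER stress, was at 39431, 40510, 33019, 40640 and 40049 normalised reads in lines 1, 2, 4, 8 and 11 with IWR-1 and at 40295, 44344, 33439, 47674 and 40043 without it. Line 4 was lowest in both media and line 1 lay among the other lines, at 0.979 and 0.955 times their median. The other chaperones spread less between lines: HSP90B1 (GRP94) ranged over 0.29, the disulfide isomerase PDIA4 over 0.27, the lectin CALR over 0.31 and the chaperone complex subunit SDF2L1 over 0.30 on the log2 scale. DNAJB9, a co-chaperone of HSPA5 and a target of spliced XBP1, had its minimum in line 1, in each medium, at 872 and 834 against 931 to 1267 and 968 to 1192. XBP1 (gene ID 541236) was at 9401, 8825, 6107, 8467 and 8680 with IWR-1 and 10344, 10160, 7050, 10845 and 9209 without it, with line 4 lowest. The 1 exception was HERPUD1 (gene ID 613577), a membrane protein of ER-associated degradation, at 4215, 2142, 1246, 2008 and 1659 with IWR-1 and 5114, 1873, 1390, 2386 and 1679 without it. Line 1 was thus 2.3 and 2.88 times the median of the other lines (F test adjusted p = 4.58e-06).

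Over the groups of members, the median ratio of line 1 to the median of the other lines was 3.4 with and 4.31 without IWR-1 for the regulators and effectors, 2.33 and 2.46 for the enzymes, and 2.11 and 2.05 for the transporters. For the ER genes it was 1.08 and 1.03, and for all tested genes 0.998 and 0.997. The range over lines, a difference of mean log2 values, had a median of 1.59 over the members and 0.77 over all tested genes. Without line 1 these medians were 0.68 and 0.68, and 20 of 31 members differed between the other 4 lines, against 54.6% of all tested genes. Line 11 held the maximum in both media for 3 members (PPP1R15A, PDIA4 and DNAJB9, against 10.0% of all tested genes), line 8 for 1 (HSPA5, 8.82%), and lines 2 and 4 for 0 (9.23% and 19.1%). The minimum lay in line 4 for 10 of 31 members, 4 of them ER genes (18.4% of all tested genes), and in line 8 for 8, all of them amino acid response genes (10.9%). It lay in line 11 for 3 members (8.27%), in line 2 for 1 (7.77%) and in line 1 for 1, DNAJB9.

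Related genes that are no members were compared in the same way. Their lists, too, were chosen with earlier results of these data known. Line 1 was the highest in both media for 22 of 28 other ATF4 targets, 12 of 20 aminoacyl-tRNA synthetases, which load amino acids onto tRNA and are in part ATF4 targets, and 5 of 12 other folate and serine genes. FGF21 and NUPR1, both among the 22, passed the filter only through the wells of line 1, and they are also in the median ratio below. Line 1 was the highest for 4 of 20 stress sensors and eIF2 genes and for 3 of 32 other ER folding and degradation genes, where it was the lowest for 6. The median ratio of line 1 to the other lines was 1.58 and 1.53 for the other ATF4 targets, 1.3 and 1.37 for the synthetases and 0.978 and 0.958 for the other ER genes. Some other features of line 1 moved with this. Its summed pluripotency marker level was the highest, at 195267 and 193526 against 98629 to 182365 in the other wells. That sum is weighted to the most abundant genes, among them POU5F1, at 62019 and 58134 in line 1 and at most 40679 elsewhere. Of the 9 pluripotency markers tested, 4 were highest in line 1 in both media and 3 in line 2 (12.2% and 9.23% of all tested genes). The summed fibroblast marker level of line 1 was the lowest of the lines in each medium, at 10235 and 12600. Its mouse share was the lowest in each medium, at 23.4% and 21.2%. The mouse share of line 8 was nearest to that of line 1, at 25.7% and 21.5%. The part of these features in the gene levels was not tested.

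**Figure D2:**
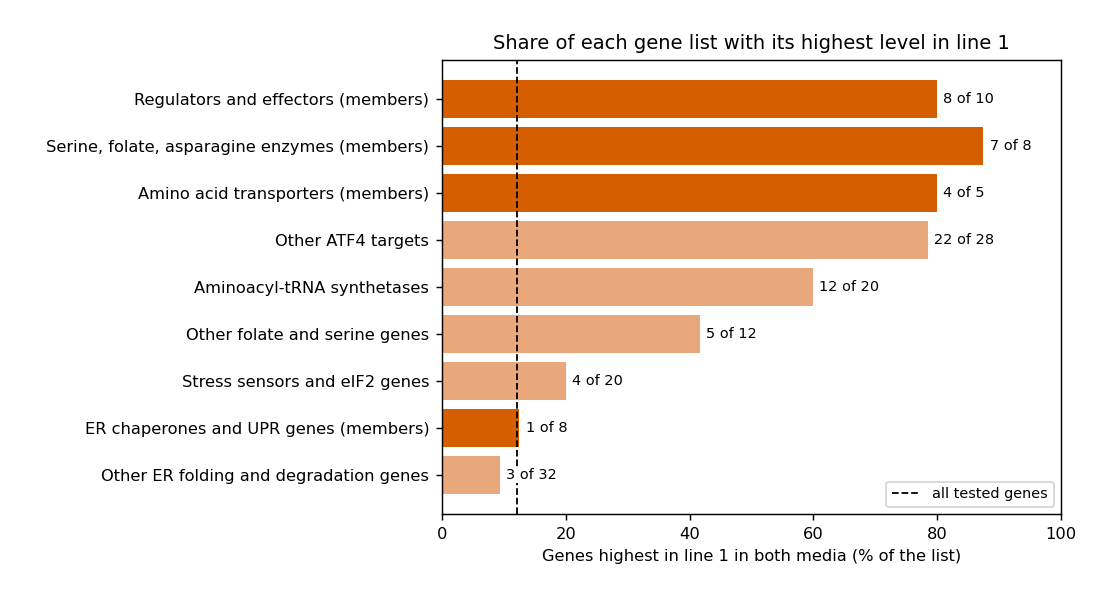
Share of each gene list that had its highest normalised read count in line 1 in both media, in percent of the tested genes of the list, with counts beside the bars. The dashed line marks the 12.2% of all tested genes. Dark bars are member groups and light bars related genes. The other ATF4 targets include FGF21 and NUPR1, which passed the filter only through the wells of line 1. The bars of the 3 amino acid response groups and of the other ATF4 targets reach far past the dashed line, and those of both ER lists lie near it.

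The second question was what 1 day without IWR-1 did to these genes within each line. Most amino acid response genes were slightly higher without IWR-1, with a positive log2 fold change in 19 of 23 and a median of 0.20. PSAT1, ALDH1L2 and the transporter SLC7A5 rose, at 1.51, 1.23 and 1.28 times their level with IWR-1, and no member fell (limma with the line as a block, adjusted p under 0.05 over all tested genes). Over all 18506 tested genes, 0.886% rose and 0.0648% fell, 0.951% in all. A positive log2 fold change was seen in 27 of 31 members, against 48.4% of all tested genes, and 17 of 31 had an unadjusted p under 0.05, against 10.1%. The change was upward in 5 of 5 lines for 13 members (6.20% of all tested genes) and downward in 5 of 5 lines for 1, DDIT4 (4.92% of all tested genes). The median log2 fold change was 0.20 over the members and -0.0046 over all tested genes. The mouse share of the wells went down in the same 5 lines, and with it as a covariate the median of the members was 0.11 and 0 were called. Marker levels of other cell types also moved with the medium. The summed level of 8 trophectoderm markers was higher without IWR-1 in 5 of 5 lines, at 8697 to 58803 against 3985 to 30875 normalised reads. Of the 4 tested, the keratins KRT8 (0.79 ± 0.09 (SE), limma adjusted p = 0.00453) and KRT18 (0.96 ± 0.08 (SE), limma adjusted p = 0.00108) rose and KRT7 and TFAP2A were not called, while CDX2, GATA3, GATA2 and ELF5 were below the filter. The summed fibroblast markers were higher in 5 of 5 lines too, at 12600 to 136624 against 10235 to 123448, with 0 of 12 called. The single markers were mixed: 9, 7, 10, 4 and 8 of the 12 were higher without IWR-1 in lines 1, 2, 4, 8 and 11. In line 8 their median log2 change was -0.12. The summed pluripotency markers were lower in 5 of 5 lines, at 98629 to 193526 against 101846 to 195267. This sum is weighted to the most abundant genes, and most single markers did not go down with it. Of the 9 tested, 5 had a positive log2 fold change. By line, 5, 5, 5, 7 and 5 of the 9 were higher without IWR-1 in lines 1, 2, 4, 8 and 11. The 1 marker called, NANOG, rose (0.33 ± 0.06 (SE), limma adjusted p = 0.0411). The part of these marker changes in the changes of the members was not tested.

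**Figure D3:**
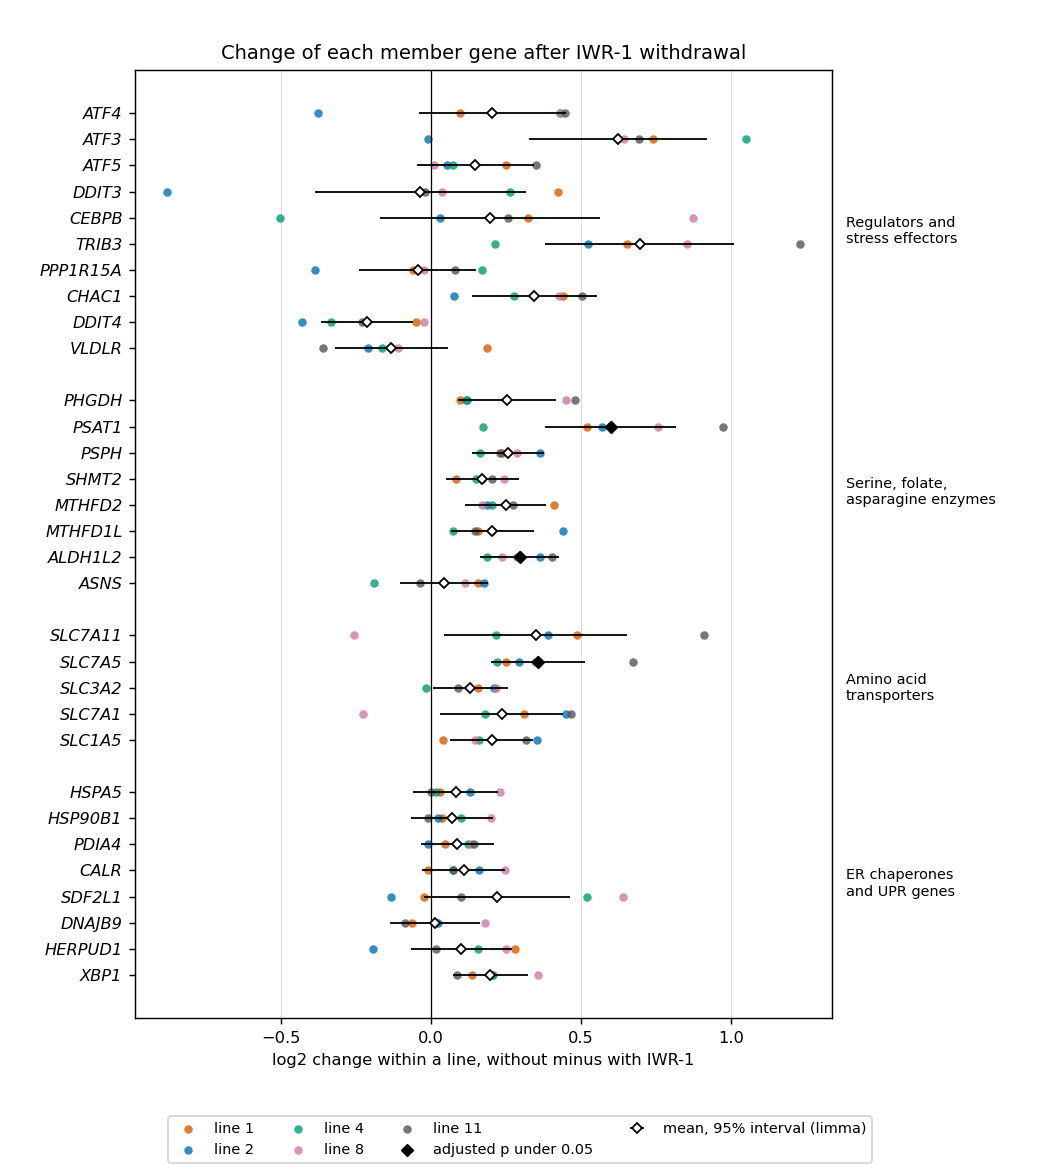
Change of each member after IWR-1 withdrawal, as the log2 difference without minus with IWR-1. Coloured points are the 5 lines, and diamonds with bars are the limma mean and its 95% interval, filled where the adjusted p was under 0.05. The filled diamonds are PSAT1, ALDH1L2 and SLC7A5, and the diamonds of the ER genes lie between 0.01 and 0.22.

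Of the enzymes, all 8 had a positive log2 fold change, 2 rose and 7 were higher without IWR-1 in 5 of 5 lines, with a median of 0.25. PSAT1, the transaminase of serine synthesis, rose by 0.60 ± 0.10 (SE) on the log2 scale (limma adjusted p = 0.0224). Its mean level was 2004 ± 1425 normalised reads with IWR-1 and 2844 ± 1789 without it (SD, n = 5). The 5 wells of each medium overlapped, and within lines the change was 0.52, 0.57, 0.17, 0.76 and 0.97 in lines 1, 2, 4, 8 and 11. ALDH1L2 rose by 0.30 ± 0.06 (SE) (limma adjusted p = 0.0497), with changes of 0.29, 0.36, 0.19, 0.24 and 0.40 in the same order. Its mean was 1965 ± 1174 with IWR-1 and 2407 ± 1426 without it (SD, n = 5). PSPH missed the threshold at 0.26 ± 0.05 (SE) (adjusted p = 0.0562), as did MTHFD2 at 0.25 ± 0.06 (SE) (adjusted p = 0.109), PHGDH at 0.25 ± 0.07 (SE) (adjusted p = 0.196), MTHFD1L at 0.20 ± 0.06 (SE) and SHMT2 at 0.17 ± 0.05 (SE). ASNS was the exception in the group, at 0.04 ± 0.07 (SE) with a 95% interval of -0.10 to 0.19, and was lower without IWR-1 in lines 4 and 11.

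All 5 transporters had a positive log2 fold change, with a median of 0.24, and 1 rose. SLC7A5 rose by 0.36 ± 0.07 (SE) (limma adjusted p = 0.0478), with changes of 0.25, 0.29, 0.22, 0.35 and 0.68 in lines 1, 2, 4, 8 and 11. Line 11 changed most. The mean level was 6076 ± 3871 normalised reads with IWR-1 and 7574 ± 4362 without it (SD, n = 5). Not called were SLC7A11 at 0.35 ± 0.14 (SE), SLC7A1 at 0.24 ± 0.09 (SE), SLC1A5 at 0.20 ± 0.06 (SE) and SLC3A2 at 0.13 ± 0.06 (SE). SLC7A11 and SLC7A1 were lower without IWR-1 in line 8, by -0.26 and -0.23, and higher in the other 4 lines.

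The regulators and effectors were mixed, with 6 of 10 at a positive log2 fold change and 0 called. TRIB3 had the largest difference of all members, 0.70 ± 0.14 (SE), at the edge of the threshold (limma adjusted p = 0.0532), with changes of 0.66, 0.52, 0.21, 0.85 and 1.23 in lines 1, 2, 4, 8 and 11. ATF3 was at 0.62 ± 0.13 (SE) (adjusted p = 0.0647), higher in 4 lines and level in line 2. CHAC1 was at 0.34 ± 0.09 (SE) (adjusted p = 0.164), higher in 5 of 5 lines. ATF4 itself was at 0.20 ± 0.11 (SE), with a 95% interval of -0.04 to 0.45, and DDIT3 at -0.04 ± 0.16 (SE), with one of -0.39 to 0.32. DDIT4 went the other way, at -0.21 ± 0.07 (SE) (adjusted p = 0.264). Line 2, singled out after its values were seen, had the lowest change of the 5 lines for 6 of these 10 genes: -0.88 for DDIT3, -0.43 for DDIT4, -0.39 for PPP1R15A, -0.38 for ATF4, -0.01 for ATF3 and 0.08 for CHAC1. The share of all tested genes with their lowest change in line 2 was not computed, so this count has no background. All 8 enzymes and all 5 transporters were higher without IWR-1 in the same line, against 9850 of 18506 tested genes. Line 2 has 1 well per medium, so that this pattern has no replicate. Over all tested genes, the deviations of its 2 wells from their group means correlated at 0.617. That was the lowest of the 5 lines, with line 8 next at 0.646. Without line 2, ATF4 (0.35, adjusted p = 0.0382) and ATF3 (0.78, adjusted p = 0.0084) passed the threshold and DDIT3 was at 0.18. Leaving out other lines added calls too, of TRIB3 without line 4 (limma adjusted p = 0.0351) and of the transporter SLC7A1 without line 8 (limma adjusted p = 0.0462). Over the 5 fits that leave out 1 line, adjusted p ranged from 0.0382 to 0.998 for ATF4 and from 0.0084 to 0.294 for ATF3.

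None of the 8 ER genes was called by limma, though all had a positive log2 fold change, of 0.01 to 0.22, and 1 had an unadjusted p under 0.05. That was XBP1, at 0.20 ± 0.06 (SE) (adjusted p = 0.182) and higher in 5 of 5 lines. HSPA5 was at 0.08 ± 0.06 (SE), HSP90B1 at 0.07 ± 0.06 (SE), PDIA4 at 0.09 ± 0.06 (SE) and CALR at 0.11 ± 0.06 (SE). SDF2L1 had the largest difference, 0.22 ± 0.11 (SE), with its highest changes in lines 4 and 8 (0.52 and 0.64). The 95% intervals of the 8 genes together span -0.14 to 0.46. edgeR and DESeq2 with the line as a block also called 0 of the 8.

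**Figure D4:**
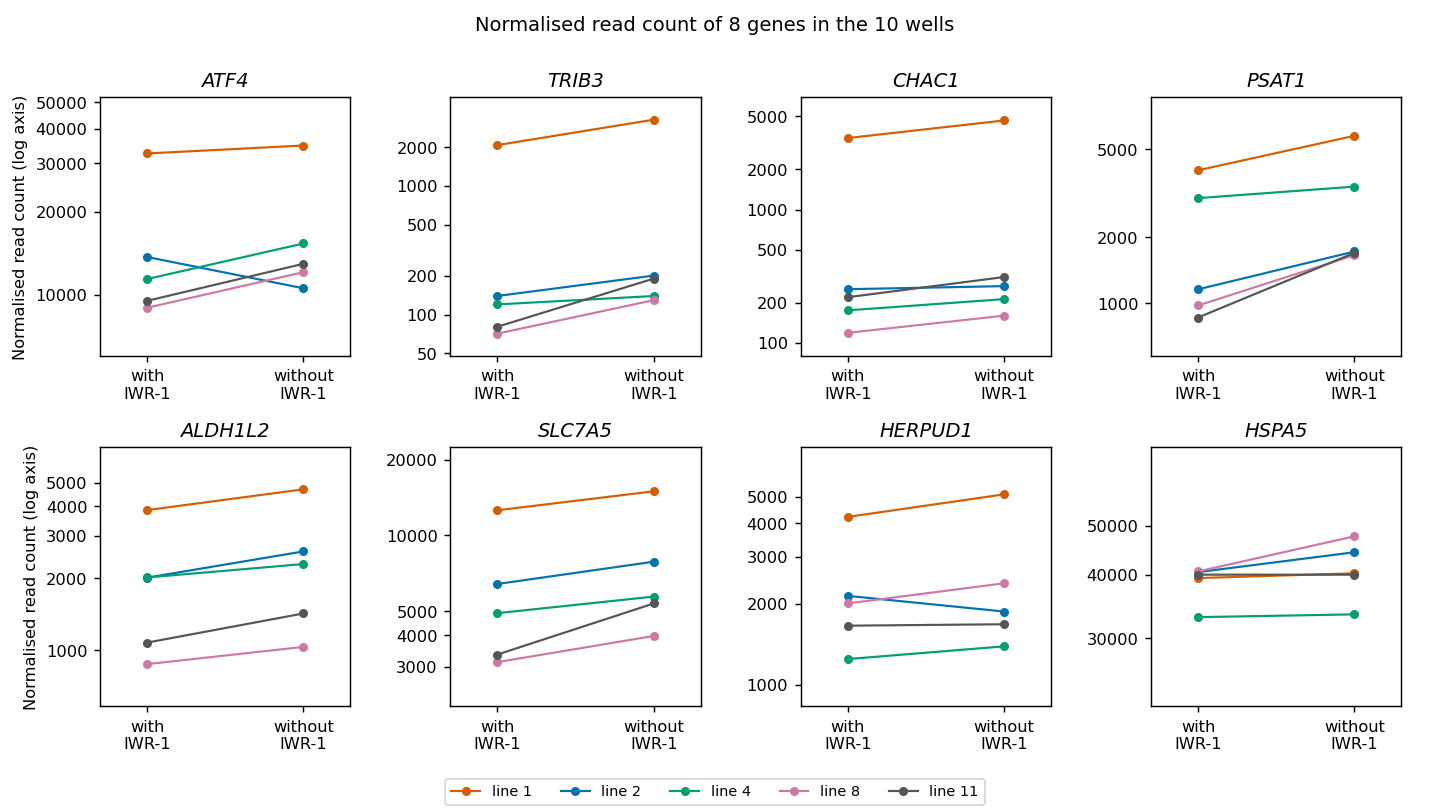
Normalised read count of 8 members in the 10 wells, each panel on a log axis of its own. A line joins the 2 wells of a stem cell line. Line 1 is on top in both media for 7 of these genes and lies among the other lines for HSPA5.

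Of the related genes, none was called in this comparison. The log2 fold change was positive for 19 of 20 aminoacyl-tRNA synthetases, at a median of 0.12, with CARS1 at 0.27 ± 0.06 (SE) (limma adjusted p = 0.0535) and GARS1 at 0.21 ± 0.07 (SE). By line, 13, 20, 8, 16 and 16 of the 20 were higher without IWR-1 in lines 1, 2, 4, 8 and 11. Of all 18506 tested genes, 9059, 9850, 9042, 9438 and 9002 were. It was positive for 20 of 28 other ATF4 targets, at a median of 0.08, with the cystathionine synthase CBS at 0.23 ± 0.05 (SE) (adjusted p = 0.0858) and the serine and alanine carrier SLC1A4 at 0.35 ± 0.09 (SE). The other 3 lists had smaller medians. The 12 other folate and serine genes had 6 positive, with MTHFD2L at -0.22 ± 0.12 (SE) and the mitochondrial serine carrier SFXN1 at 0.11 ± 0.06 (SE). The 20 sensors and eIF2 genes had 11, with the protease MBTPS2, which cleaves ATF6, at -0.13 ± 0.06 (SE) and the mitochondrial protease OMA1 at -0.21 ± 0.12 (SE). Of 32 other ER genes 25 were positive with a median of 0.05, DERL3 being at 0.27 ± 0.10 (SE) and WFS1 at -0.14 ± 0.05 (SE).

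The 3 calls rest on pairing wells by line and on few lines. Without the line as a block limma called 0 members and 0 genes (0 members and 105 genes at an unadjusted p under 0.05), and with the mouse share as a covariate 0 members and 0 genes (1 member and 456 genes at an unadjusted p under 0.05). The covariate also made the 3 estimates smaller. PSAT1 went from a log2 fold change of 0.60 to 0.12, SLC7A5 from 0.36 to 0.08 and ALDH1L2 from 0.30 to 0.17. Why they were smaller was not tested. Leaving out 1 line ended the call of PSAT1 without line 1, 8 or 11 (log2 fold change 0.51 to 0.71 and adjusted p 0.00941 to 0.104 over the 5 fits), of SLC7A5 without line 1, 4, 8 or 11 (0.28 to 0.39, adjusted p 0.0496 to 0.221) and of ALDH1L2 without any 1 of the 5 lines (0.27 to 0.32, adjusted p 0.0589 to 0.305).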

How the data were processed

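Poly(A) RNA of 10 wells, 5 with and 5 without IWR-1, was sequenced. Per the labels, mapping was done once against ARS-UCD1.3 (cattle) and once against GRCm39 (mouse). Tools listed in the submitters' processing notes, with no role given, are featureCounts 1.5.0-p3, StringTie 1.3.3b, HISAT2 2.0.5 and fastp. The authors deposited 1 signal per gene and well, a normalised read count, and the whole reads behind it were recovered by dividing by the step of the low values (100% of values whole within 0.01). Recovered reads on bovine genes were 48064953 to 64345738 and on mouse genes 17101894 to 35223039 per well. Counts give no length, so levels of different genes were not compared. Of 27590 bovine IDs 24660 matched the RefSeq table of ARS-UCD2.0, used for names only. For 2 mouse columns no sample is known, and they were not used.

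The 18506 genes that reached a value of 10 in 5 or more libraries were tested with limma 3.58.1 in R 4.3.3 (trended empirical Bayes) on log2(value + 1), so that fold changes of low genes are understated. Terms were the medium and the line, and p-values were adjusted by Benjamini-Hochberg over all tested genes with a threshold of 0.05. An F test of the line terms in the same fit compared lines. The code was tested on simulated data. Pairing comes from the design, since both wells of a number hold the same stem cell line, and the deviations of the paired wells from their group means correlated at 0.617 to 0.883. Alternatives were other tools (edgeR 4.0.16 and DESeq2 1.42.0 on recovered reads), TMM scaling, pseudocounts of 0.5 and 5, other filters, no block, the mouse share as a covariate and leaving out each line. edgeR without the block was added after seeing the data. Members and lists were chosen with earlier results of these data known.

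Values in every well are given for members called between media, for ATF4, DDIT3, TRIB3, ASNS, PSAT1, SLC7A5, HSPA5 and XBP1, for members changed the same way in 5 of 5 lines by at least 0.2 on the log2 scale, and for the 2 members of each role with the widest range over lines. ATF3 was added after its values were seen. Of each related list the 2 genes with the smallest p are named.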

Additional observations from a re-analysis of the deposited data

Results flagged for a closer look

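Of 57 groups of 5 wells or 5 within-line changes examined, 20 held 1 value set apart by more than Dixon's 95% critical value. Normal values exceed it in about 1 in 20 groups. That rate does not apply here, since some members were taken for their wide range over lines and counts were examined without a log scale. In 16 of the 20 groups the value set apart was the high one of line 1. The groups share the same wells, so that they are not independent. With IWR-1 these were ATF4 at 32600, DDIT3 at 1209, TRIB3 at 2073, CHAC1 at 3440, DDIT4 at 16245, PSPH at 7513, MTHFD2 at 3087 and SLC7A11 at 2063 normalised reads. Without IWR-1 they were ATF4 at 34839, DDIT3 at 1623, TRIB3 at 3265, CHAC1 at 4665, DDIT4 at 15705, MTHFD2 at 4103, SLC7A11 at 2892 and HERPUD1 at 5114. In line 4, HSPA5 at 33019 and XBP1 at 6107 with IWR-1 were set apart as low values. The mouse share of line 4 without IWR-1, 41.4%, was set apart as a high one. The change of SLC7A5 in line 11, 0.68 on the log2 scale, was set apart from those of the other 4 lines.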

How the results depend on the processing

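Comparing media over all genes, limma with the line as a block called 164 genes higher and 12 lower without IWR-1. DESeq2 called 358 and 64, limma without the filter 51 and 2, and limma or edgeR without the block 0 and 0 (105 and 112 genes at an unadjusted p under 0.05). With the mouse share as a covariate limma called 0 and 0 (456 unadjusted). Leaving out each line gave 31 to 159 higher and 0 to 25 lower.

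Members that rose numbered 3 (PSAT1, ALDH1L2 and SLC7A5) and became 7 with DESeq2, which added ATF3, TRIB3, CHAC1 and PSPH, 1 with TMM scaling (PSAT1), and 0 without the filter, with the covariate, or without the block in limma and edgeR. Leaving out each line gave 0 to 4. edgeR with the block and a pseudocount of 5 each called 4, adding TRIB3. Each line has 1 well per medium, so limma gives a member the same log2 fold change with and without the block. The mean difference in mouse share is the same for that reason, and neither could turn. Dropping the block could turn a direction only in edgeR. It did so for DDIT3 alone, whose log2 fold change was 0.16 in edgeR without the block. DDIT3 was also at 0.32 with the covariate and between -0.15 and 0.18 when leaving out each line, and ASNS was at -0.025 with the covariate. With the covariate the direction also turned for CEBPB (from 0.20 to -0.23), VLDLR (from -0.13 to 0.08) and PPP1R15A (from -0.04 to 0.03). PPP1R15A turned without line 2 (0.04) and DNAJB9 (from 0.01) without line 8 (-0.03). None of these members was called in either fit. The cause of these differences was not tested, other than the fewer wells where a line was left out.

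Between lines, the F test called 12304 genes and 26 members, and 9017 to 12676 genes and 20 to 29 members when leaving out each line. Leaving out a line moved the difference in mouse share between -4.32 and -2.90 percentage points. With 1 well per line and medium, a change seen in a single line has no replicate. Depth limits TRIB3 most among the members, its lowest read count being 77.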

Other observations

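Among the other ATF4 targets, 3 genes for secreted or stress-linked proteins were highest in line 1 in both media and are given here because of their values. STC2, a secreted glycoprotein, was at 5357, 1214, 117, 657 and 288 normalised reads in lines 1, 2, 4, 8 and 11 with IWR-1 and at 5884, 886, 91.2, 532 and 415 without it. Line 1 was thus 11.3 and 12.4 times the median of the other lines. FGF21, a hormone of fasting and stress, was at 219 and 283 in line 1 and at 0 to 23.3 in the 8 wells of the other lines. NUPR1, a small chromatin protein, was at 42.5 and 55.2 in line 1 and lower in each of the 8 other wells, down to 2.38. FGF21 and NUPR1 reached the minimum value of 10 in only 5 of 10 wells, 2 of them those of line 1. They thus passed the filter only through that line, although both are among the 28 other ATF4 targets counted above. Their values are given as a description, and no test of them is cited.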
